A study of Mus musculus with 6 samples.

Results

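Complement components and regulators were examined in the ribosome-bound mRNA of the mouse choroid plexus (ChP). The set holds 7 genes, taken by symbol from the 24354 gene names of the expression table: C3, C4b, C2, Cfb, Cd59a, Cd55 and Serping1. The study compared the transcripts that ChP cells translate before birth and in adulthood, using translating ribosome affinity purification (TRAP), in which tagged ribosomes are pulled down with the mRNA they carry. There were 3 adult and 3 E16.5 samples. Mice of both ages had the same genotype, FoxJ1:cre crossed with the bacTRAP line EGFP:L10a. A ribosomal protein fused to EGFP was thus switched on where Cre was made under the Foxj1 promoter, which is active in cells with motile cilia and in ChP epithelium, and no library without Cre was among the samples. The labels give the adults an age of 60 days and the methods an age of 8 weeks. The methods describe each sample as a pool, made from 3 mice in the adult and from 3 litters at E16.5, whereas the design text counts 3 mice for each age. The p-values below therefore measure the spread between these 3 samples of an age, and how many animals stand behind each is not settled.

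Complement is a cascade of plasma proteins that marks surfaces for removal and can pierce membranes. The classical pathway cleaves C4 and C2, the alternative pathway uses factor B, and both converge on C3, whose cleavage leads to opsonins, inflammatory peptides and the membrane attack complex. Host cells hold the cascade in check with soluble inhibitors such as the C1 inhibitor and with inhibitors anchored in their own membranes, among them CD55, which speeds the decay of the enzymes that cleave C3, and CD59, which blocks assembly of the attack complex. The liver makes most circulating complement, and the ChP epithelium forms the barrier between blood and cerebrospinal fluid.

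The sequences directly upstream of the start of 3 members are shown because a promoter was at hand for these members only, and because Cd59a passed the test of the ages while Cd55 stood without overlap in the other direction. The RefSeq promoter table held C3, Cd59a and Cd55 and no entry for C4b, C2, Cfb or Serping1. Each sequence is the 250 bases before the start site in build GRCm38.p6, written 5′ to 3′ along the gene, and capitals mark matches to any of the 4 short motifs described after them.
C3, chr17:57228137-57228386, minus strand: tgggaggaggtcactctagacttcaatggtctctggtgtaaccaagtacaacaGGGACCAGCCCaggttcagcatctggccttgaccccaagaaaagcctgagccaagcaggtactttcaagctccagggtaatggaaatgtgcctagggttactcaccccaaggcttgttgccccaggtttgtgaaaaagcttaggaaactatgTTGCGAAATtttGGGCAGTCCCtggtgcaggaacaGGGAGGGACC
Cd59a, chr2:104095551-104095800, plus strand: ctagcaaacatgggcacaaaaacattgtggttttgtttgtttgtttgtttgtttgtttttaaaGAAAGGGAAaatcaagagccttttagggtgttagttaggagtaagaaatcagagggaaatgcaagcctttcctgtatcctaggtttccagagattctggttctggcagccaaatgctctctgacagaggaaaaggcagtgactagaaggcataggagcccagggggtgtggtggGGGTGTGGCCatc
Cd55, chr1:130462745-130462994, minus strand: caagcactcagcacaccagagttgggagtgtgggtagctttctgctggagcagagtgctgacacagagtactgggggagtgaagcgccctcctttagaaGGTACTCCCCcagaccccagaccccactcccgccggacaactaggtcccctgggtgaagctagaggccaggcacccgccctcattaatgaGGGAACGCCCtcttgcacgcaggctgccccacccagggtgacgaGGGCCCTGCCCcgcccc
These stretches differed in base composition. GC content was 52% upstream of C3, 44.8% upstream of Cd59a and 64% upstream of Cd55, where the median of 32851 promoters was 52.4%. The Cd59a stretch held 0 CpG dinucleotides, the C3 stretch 1 and the Cd55 stretch 8, against a median of 6 over the same 250 bases of all promoters.

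Motifs of 4 factors that respond to inflammation were searched on both strands, in windows that also took in the 50 bases after the start. The letters GAAANNGAA, a core of the interferon-stimulated element, matched once, in Cd59a at bases -187 to -179 from the start, and were present in 8.56% of all promoters of the same length. TTCNNNGAA, the STAT element, matched in none of these 3 windows and was present in 8.3% of promoters. TTNNGNAAT, a C/EBP core, matched 1 time, in C3 at bases -45 to -37, and occurred in 11.5% of promoters. A loose NF-kappaB core, 3 G and 2 C around 5 bases of any kind, matched 5 times in C3, 2 times in Cd59a and 5 times in Cd55, counting each strand and overlapping matches, and 50.8% of promoters held it. One of the Cd59a matches lay after the start and is not in the printed stretch. A match describes letters only, and no binding was measured.

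Of the 7 members, Cd59a was higher in adult ChP, and no other member passed the test in either direction. The level of a gene is given as FPKM, the fragments on a transcript per kilobase and relative to all mapped reads, so that levels of genes within a library can be compared per length. How the libraries are scaled to each other bears on every comparison of the ages. Changes are given as the difference of mean log2(FPKM + 1), adult minus E16.5, with the limma test adjusted over the 11601 genes whose mean FPKM over the 6 samples was above 1. Among the members, 6 were above 0 in at least 1 library and 5 passed this filter. The count of 1 member higher of 5 tested stands beside 2.12% of all genes tested that were called higher in adult, and 0 members lower stands beside 8.83% called lower. At an unadjusted p under 0.05, 1 member was higher (Cd59a) and 1 lower (Cd55), and 31.3% of all genes tested were under that p in either direction. The split over all genes depended on scaling, with 3.06% called higher and 5.76% lower under median-ratio scaling, 4.9% and 4.34% under quantile normalization, and 0.905% and 24.8% with libraries rescaled to the same sum. The median change of all genes tested was -0.86, and relative to it the changes of the tested members were 3.59 for Cd59a, 2.50 for C3, 0.07 for Cfb, -0.68 for Serping1 and -1.54 for Cd55.

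**Figure D1:**
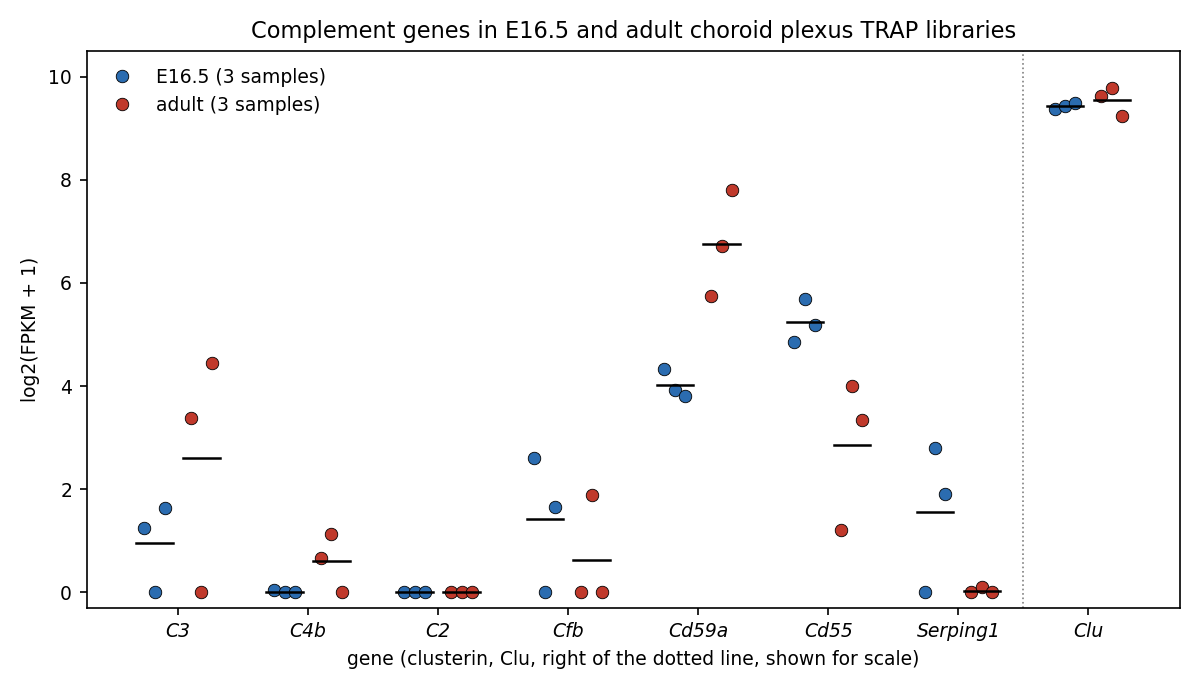
Level of the 7 complement members and of clusterin (Clu) as log2(FPKM + 1), with 1 point per library, E16.5 in blue and adult in red, and a bar at the mean of each age. The adult points of Cd59a all lie above its E16.5 points, those of Cd55 all lie below, C2 is at 0 throughout, and the other members have libraries at or close to 0 at both ages.

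Cd59a encodes the mouse CD59 that is widely expressed, a GPI-anchored protein that stops the membrane attack complex from forming. It is annotated as ENSMUSG00000032679.12, on the plus strand of chr2 at 104095801 to 104115354 in GENCODE vM21 (GRCm38, the mm10 build). Its FPKM was 52.6, 104 and 221 in adult replicates 1, 2 and 3, and 19.1, 14.2 and 13 in E16.5 replicates 1, 2 and 3. The lowest adult library stood above the highest E16.5 library, and the adult libraries were spread more widely than the E16.5 libraries. The means were 126 ± 86.5 in adult and 15.4 ± 3.24 at E16.5 (SD, n = 3 each), 8.17-fold higher in adult. On the log2 scale the change was 2.73 (SE 0.53, 95% interval 1.49 to 3.98, limma adjusted p = 0.0243) and lay 3.59 above the median of all genes. The ages did not overlap, which holds in the same direction for 7.39% of all genes tested. A two-sided exact permutation test gave p = 0.1, the smallest that 3 samples against 3 allow.

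Cd59a was also placed higher among the genes of its own library in adult ChP. Counting genes above 0, it stood at percentiles 90, 95.7 and 97.6 in the adult libraries and at 67.7, 58.4 and 58 in the E16.5 libraries. It ranked 183 of 7599 genes in adult replicate 3 and 5375 of 12800 in E16.5 replicate 3. At the depth implied by the smallest steps between low FPKM values, these levels correspond to about 331, 1470 and 1075 reads in the adult libraries and 388, 363 and 303 reads in the E16.5 libraries.

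The call for Cd59a held in 13 of 17 alternative treatments of the data, and its change was positive in all of them, between 1.94 and 3.26. Leaving out any one of the E16.5 libraries ended it, with a change of 2.89 and limma adjusted p = 0.0835 without replicate 1, 2.68 and 0.0935 without replicate 2, and 2.63 and 0.086 without replicate 3. The number of genes called over the whole table fell with them, from 246 higher and 1024 lower to between 27 and 47 higher and between 16 and 65 lower. Without adult replicate 3, the shallowest library and the one with the highest Cd59a value, the change was 2.21 and the adjusted p was 0.0176.

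Cd55 encodes decay-accelerating factor, a GPI-anchored inhibitor that acts upstream of CD59 by taking apart the convertases that cleave C3. It is annotated as ENSMUSG00000026399.12, on the minus strand of chr1 at 130439027 to 130462744. Its FPKM was 1.32, 15 and 9.13 in adult replicates 1, 2 and 3, and 28, 50.5 and 35.2 in E16.5 replicates 1, 2 and 3. Every adult library was below every E16.5 library, and adult replicate 1 was far below the other adult libraries. Mean levels were 8.48 ± 6.86 in adult and 37.9 ± 11.5 at E16.5 (SD, n = 3 each), which is 4.47-fold higher at E16.5. The log2 change of -2.39 (SE 0.75, 95% interval -4.14 to -0.65) did not pass the test over all genes (limma adjusted p = 0.0792) and stood at -1.54 relative to the median change. A non-overlapping lower level in adult was found for 31% of all genes tested, and the exact permutation test again gave its smallest possible p of 0.1.

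In percentiles among genes above 0, Cd55 stood at 14.3, 63.6 and 39 in the adult libraries and at 77.2, 87.2 and 81.9 in the E16.5 libraries. Genes above 0 numbered 9487, 11340 and 7599 in the adult libraries and 13077, 12761 and 12800 at E16.5. These percentiles, like those of Cd59a, thus have unlike bases at the 2 ages, and the part of this in them was not tested. The adult values rest on few reads, about 12, 308 and 64, against 828, 1883 and 1194 at E16.5. Cd55 passed the threshold in 3 of 17 alternatives, namely with libraries rescaled to the same summed FPKM (-3.19, limma adjusted p = 0.0267), with weights for the quality of each sample (-2.51, 0.0425) and without adult replicate 2 (-2.96, 0.044). Its change was negative in all 17, and the smallest, -1.57, was found without adult replicate 1. Cd55 shared 9.12% of its 50-base stretches with other genes, 8% with its paralogue Cd55b, which was at 0 in every library.

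The balance between these membrane inhibitors differed between the ages in every library. The ratio of Cd59a to Cd55 FPKM is free of any scaling of a library. It was 39.9, 6.93 and 24.2 in adult replicates 1, 2 and 3, and 0.681, 0.28 and 0.369 in E16.5 replicates 1, 2 and 3. Cd59a was thus the higher of the pair in each adult library and Cd55 in each E16.5 library, and the lowest adult ratio was above the highest E16.5 ratio. This ratio was chosen after its values were seen, and no test was made of it.

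Summed over the 7 members, FPKM was 63.9, 123 and 251 in the adult libraries and 53.6, 70.6 and 55.2 in the E16.5 libraries. Cd59a and Cd55 together made up 84.3% to 96.8% of that sum in the 6 libraries. The share of Cd59a alone was 82.3%, 84.6% and 88.1% in adult, against 35.6%, 20% and 23.5% at E16.5. Cd55 took 2.06%, 12.2% and 3.64% in adult and 52.3%, 71.5% and 63.8% at E16.5. The other 5 members together came to no more than 20.7 FPKM in any library.

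**Figure D2:**
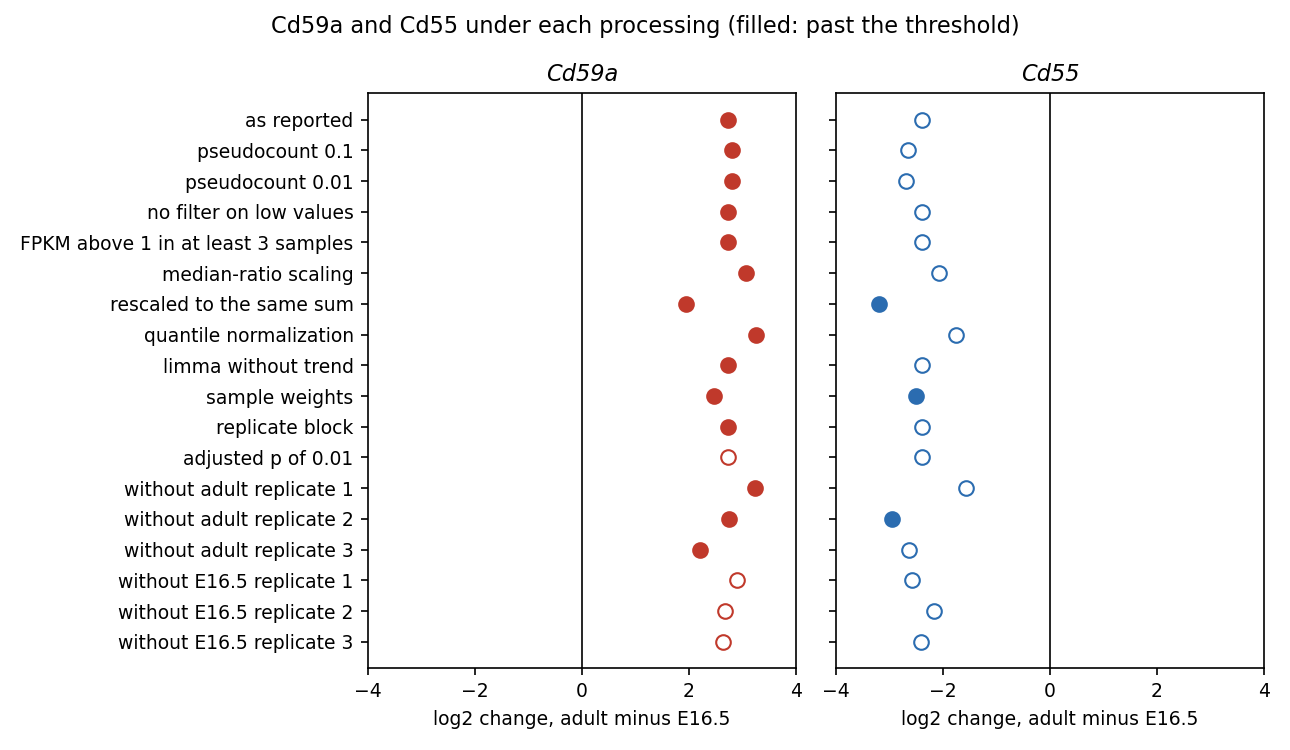
Log2 change of Cd59a (left, red) and Cd55 (right, blue), adult minus E16.5, as reported and under 17 alternative treatments, with filled points past the threshold of that fit. Cd59a stays between 1.94 and 3.26 and loses its call at the stricter threshold and without any one E16.5 library, and Cd55 stays between -3.19 and -1.57 and is called in 3 alternatives.

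C3, the protein on which all complement pathways converge, was detected in 4 of the 6 libraries. It is annotated as ENSMUSG00000024164.15, on the minus strand of chr17 at 57203970 to 57228136. FPKM was 9.41, 0 and 20.7 in adult replicates 1, 2 and 3, and 1.39, 0 and 2.1 in E16.5 replicates 1, 2 and 3. Where it was above 0, the adult values were higher than the E16.5 values, and 1 library of each age was listed at 0. The zero in adult replicate 2 stood beside about 182 and 309 reads in the other adult libraries, at a depth where 3 reads would have given 0.069 FPKM. In E16.5 replicate 2, which lacks C3 beside about 87 and 151 reads in its fellow libraries, 3 reads would have given 0.038 FPKM. A listed 0 need not mean an absent transcript, since genes that nearly every cell uses were at 0 in some libraries, such as B2m, a class I histocompatibility chain, in adult replicate 3. That library had 36.4% of tested genes at 0, against 10.3% in adult replicate 2 and 3.68% in E16.5 replicate 2. In these latter libraries, where C3 was at 0, B2m was at 92.3 and 70.3 FPKM, so the example does not bear on them directly.

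The log2 change of C3 was 1.64 (SE 1.19, 95% interval -1.12 to 4.40) and was not called (limma adjusted p = 0.372, exact permutation p = 0.4). It was called in 0 of 17 alternatives. Its change ranged from 0.73 without adult replicate 3 to 2.95 without adult replicate 2, where the adjusted p was lowest at 0.0517. The interval thus covers a fall as well as a large rise. C3 shared none of its 50-base stretches with another gene. At its highest, in adult replicate 3, C3 stood at percentile 60.1, below Cd59a in the same library.

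The 3 other activation proteins of the set lie close together in the class III region of the histocompatibility complex on chr17. C4b, the mouse C4 that feeds the classical and lectin pathways, is annotated as ENSMUSG00000073418.4 at 34728380 to 34743882 on the minus strand. Its FPKM was 0.59, 1.19 and 0 in adult and 0.0307, 0 and 0 at E16.5, values that stand for about 12, 54 and 0 reads and 2, 0 and 0 reads. It was above 0 in 3 of 6 libraries, its mean was under the filter, and no test was made. Of its 50-base stretches 34.6% are shared with C4a, the neighbouring copy, so that reads could have been divided between them. C4a itself was listed at 0.664 FPKM in E16.5 replicate 1 and at 0 in the other libraries.

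C2, the protease that joins C4b in the classical C3 convertase, was at 0 in all 6 libraries. It is annotated as ENSMUSG00000024371.14 at 34862604 to 34898265 on the minus strand. At the implied depths, 3 reads would have given 0.313, 0.14 and 0.407 FPKM in the adult libraries and 0.097, 0.0769 and 0.0847 FPKM in the E16.5 libraries. Those limits cover counting error only. They also assume that reads were not lost to an overlapping model, and 41.5% of the 50-base stretches of C2 are shared with other genes, 38.7% with Gm20547, a transcript that runs through C2 and Cfb.

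Cfb encodes factor B, the alternative pathway protease that stands where C2 does in the classical pathway. It is annotated as ENSMUSG00000090231.10 at 34856374 to 34862518 on the minus strand. FPKM was 0, 2.71 and 0 in adult replicates 1, 2 and 3, and 5.05, 0 and 2.13 in E16.5 replicates 1, 2 and 3. The ages overlapped, with 1 adult and 2 E16.5 libraries above 0. The change of -0.78 (SE 0.88, 95% interval -2.84 to 1.27) was not called (limma adjusted p = 0.559) and turned to 0.25 under quantile normalization. Gm20547 shares 73% of the 50-base stretches of Cfb, so its level is uncertain.

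Serping1 encodes the C1 inhibitor, a serpin that inactivates the proteases that start the classical pathway as well as those of the contact system. It is annotated as ENSMUSG00000023224.12, on the minus strand of chr2 at 84765387 to 84775444. FPKM was 0, 0.0697 and 0 in adult replicates 1, 2 and 3, and 0, 5.98 and 2.73 in E16.5 replicates 1, 2 and 3. The adult values amount to about 1 read in all, while 2 of the 3 E16.5 libraries held about 150 and 62 reads, and the ages overlapped at 0. The change of -1.53 (SE 0.78, 95% interval -3.35 to 0.28) was not called (limma adjusted p = 0.218), nor was it in any of the 15 alternatives that tested it. No fold is given against adult libraries at or under 1 read.

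Placed in order within each library, Cd59a came first in every adult library, followed by C3 in replicates 1 and 3 and by Cd55 in replicate 2. At E16.5, Cd55 came first and Cd59a next in every library. The spread of the adult libraries at Cd55, C3 and the members under them was as wide as their levels, so that no further order among these members can be given for the adult age. C3, Cfb and Serping1 at E16.5 were each at 0 in at least 1 library, and their ranges overlapped.

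The rest of the pathway was read from lists of 54 other complement genes, of which 52 were in the table by name. Only 25 of them were above 0 in any library, counting Masp2, whose single value was 5.69e-266 FPKM, and 27 were at 0 everywhere. Of the 10 that were tested, 0 were called higher in adult and 1 lower, Cpn1, beside 2.12% and 8.83% of all genes, and at an unadjusted p under 0.05 these counts were 0 and 2. The median change of these 10 was -0.24, beside -0.86 for all genes. All adult libraries were below all E16.5 libraries in 3 of the 10 and above them in 0, beside 31% and 7.39% of all genes tested.

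**Figure D3:**
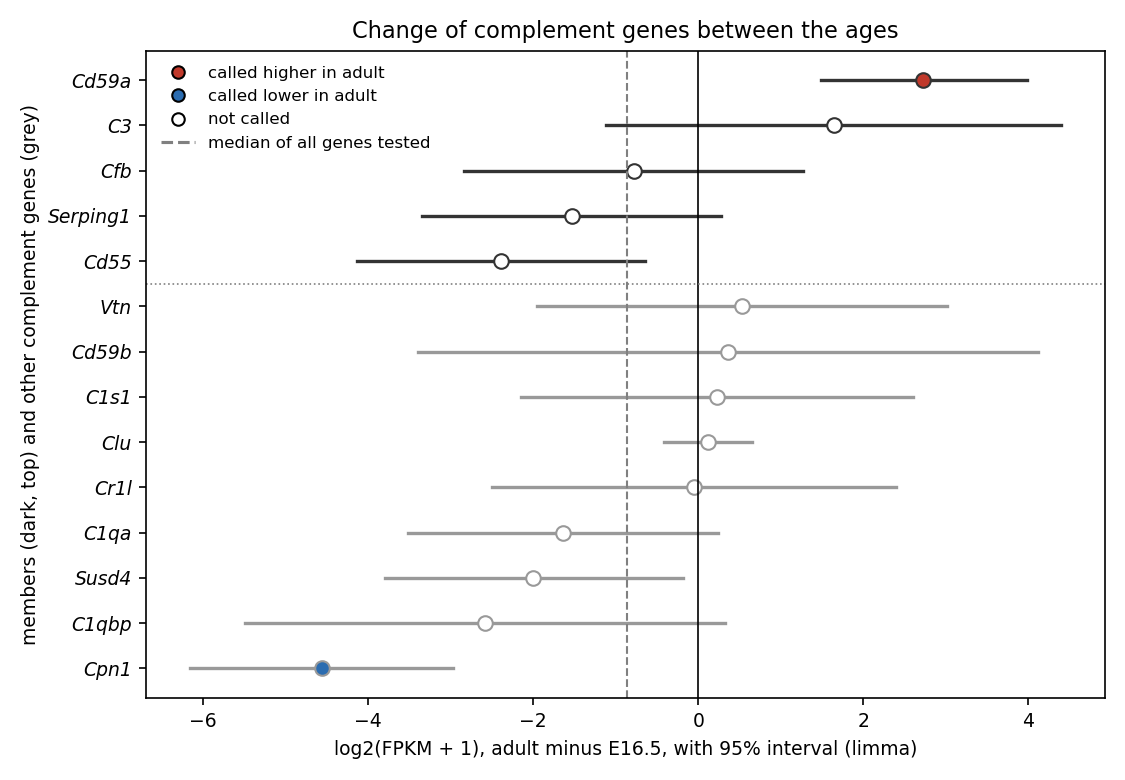
Log2 change, adult minus E16.5, with its 95% interval from limma, for the 5 tested members (dark) and 9 other tested complement genes (grey), with the median of all genes tested as a dashed line. Cd59a is the only gene called higher, at 2.73, Cpn1 the only one called lower, at -4.56, and the intervals of C3, Cd59b and several others span both directions.

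Cpn1 encodes the catalytic chain of carboxypeptidase N, the plasma enzyme that trims the inflammatory peptides C3a and C5a. Its FPKM was 0, 1.7 and 0 in adult replicates 1, 2 and 3, and 20.6, 41.6 and 37.9 in E16.5 replicates 1, 2 and 3. All E16.5 libraries were well above the adult libraries, of which only replicate 2 was above 0. The log2 change was -4.56 (SE 0.69, 95% interval -6.16 to -2.97, limma adjusted p = 0.011). The call held in 12 of 17 alternatives. It was lost when any one E16.5 library was left out (limma adjusted p = 0.0619, 0.0744 and 0.0695 for replicates 1, 2 and 3), at a pseudocount of 0.01 (0.0688) and at a threshold of 0.01. Cpn2, the other chain of the enzyme, was at 0 in all libraries.

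Clu encodes clusterin, an abundant secreted chaperone that can bind the forming attack complex. It was by far the highest complement gene, with FPKM of 787, 882 and 605 in adult replicates 1, 2 and 3 against 662, 691 and 718 in E16.5 replicates 1, 2 and 3, and it ranked between 18 and 66 among the genes of each library. The ages overlapped, and the change of 0.12 (SE 0.23, 95% interval -0.41 to 0.65) was not called (limma adjusted p = 0.746). Its direction depended on scaling, since it was -0.71 with libraries rescaled to the same sum and 0.60 under quantile normalization. Clu exceeded Cd59a 15-, 8.49- and 2.74-fold in the adult libraries and 34.7-, 48.8- and 55.2-fold in the E16.5 libraries.

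Among other soluble regulators, Vtn, vitronectin, was at 1.16, 13.1 and 0 FPKM in adult and 0, 2.01 and 2.37 at E16.5, and was not called (limma adjusted p = 0.759). Cfi, a protease that inactivates C3b, and C4bp were at 0 throughout.

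The membrane regulators other than Cd55 and Cd59a were low or uneven. Cd59b, the second mouse CD59 gene, best known from testis, was at 50, 0 and 0 FPKM in adult and 2.02, 7.03 and 0 at E16.5 (change 0.36, SE 1.62, limma adjusted p = 0.891). Its only high value was in adult replicate 1, the adult library with the lowest Cd59a. Cd59a shares 3.87% of its 50-base stretches with Cd59b. Of the stretches of Cd59b, 20.1% are shared with other genes, most of all with Efr3a (8.74%), so the Cd59b level is uncertain. Summed over Cd59a and Cd59b, FPKM was 103, 104 and 221 in adult and 21.1, 21.2 and 13 at E16.5, so that the ages did not overlap in the sum either.

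Cr1l, which encodes Crry, the rodent inhibitor of C3 convertases, was at 0, 2.86 and 1.57 FPKM in adult and 0.0546, 9.44 and 0 at E16.5. Susd4, a membrane protein with complement control domains, was at 0 in every adult library and at 0.348, 4.86 and 7.07 at E16.5, and was not called (limma adjusted p = 0.13). Cd46 was at 0 in all libraries.

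Of 16 genes in the table that start the cascade, 8 were at 0 in every library and 2 were tested. C1qa, a chain of C1q, was at 0 in all adult libraries and at 6.98, 0 and 2.78 FPKM in E16.5 replicates 1, 2 and 3. Its partner chain C1qc was at 0 throughout. C1s1, a protease of the C1 complex, was at 0, 0 and 8.44 in adult and 2.74, 0 and 0.576 at E16.5. Neither C1qa nor C1s1 was called (limma adjusted p = 0.208 and 0.89). Masp1, of the lectin pathway, was at 0 in every adult library and at 2.19, 0.0496 and 2.98 at E16.5, under the filter.

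The 7 genes of the terminal pathway, whose products form the attack complex that CD59 blocks, were all under the filter. Hc, the mouse C5 gene, and C8a, C8b and C8g were at 0 everywhere, C9 was at 0.979 FPKM in adult replicate 1 alone, and C7 was at 1.23 FPKM in E16.5 replicate 2 alone. C6 was at 0.121 FPKM in E16.5 replicate 1 and at 0 elsewhere. Factor D, Cfd, was at 0 in every library, and properdin, Cfp, was under 1 FPKM where it was above 0.

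Of 9 receptor genes, 6 were at 0 in every library, namely C3ar1, Cr2, Itgam, Itgax, Itgb2 and Vsig4. C1qbp, a mostly mitochondrial protein that also binds C1q, was the only one tested, at 29.7, 27 and 0 FPKM in adult and 52.8, 82.2 and 40.5 at E16.5, and was not called (change -2.59, limma adjusted p = 0.2). C5ar2 was at 2.19 FPKM in E16.5 replicate 3 alone. The 0 of Itgam is uncertain, since Gm49368 shares 66.3% of its 50-base stretches.

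**Figure D4:**
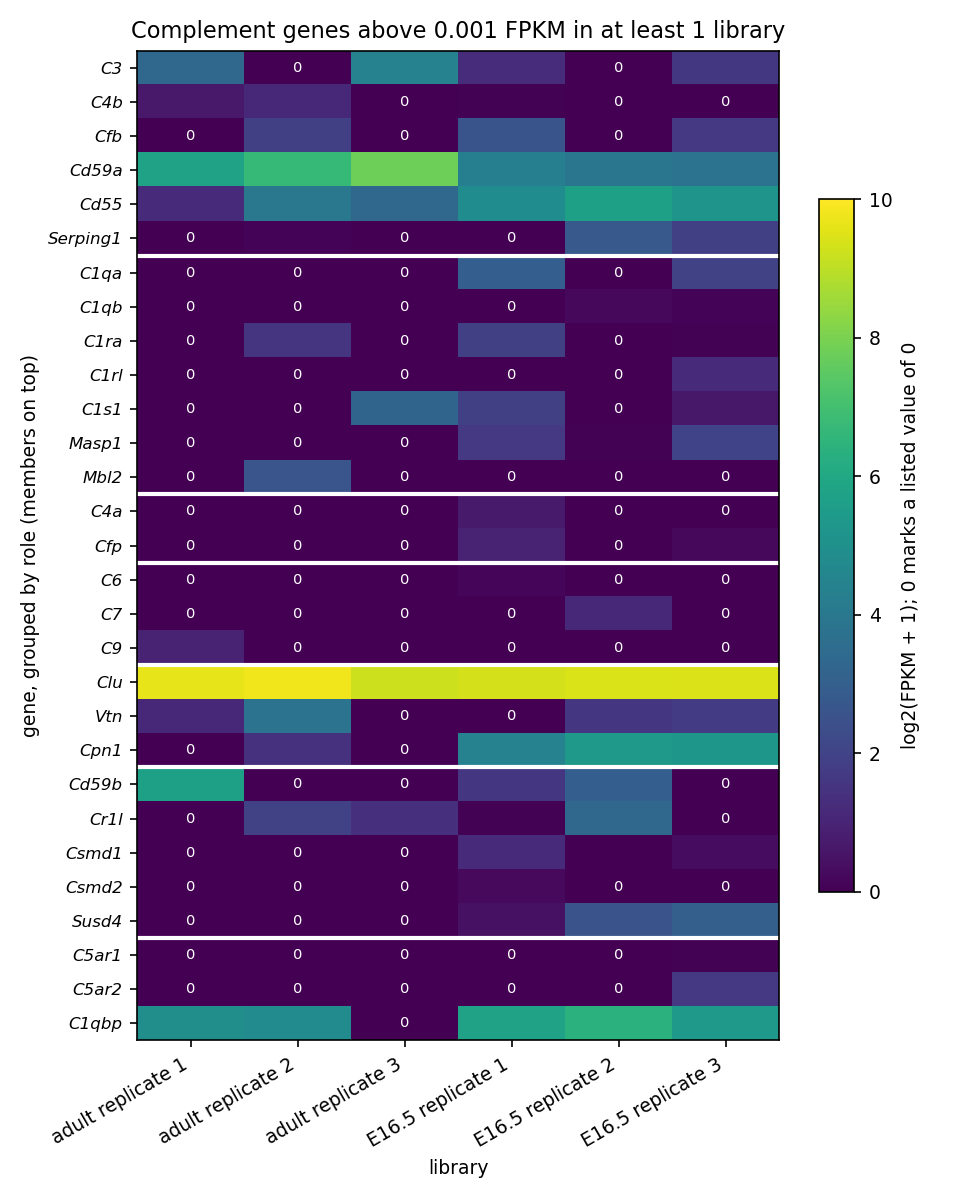
Level, as log2(FPKM + 1), of complement genes above 0.001 FPKM in at least 1 library, with libraries as columns and genes as rows grouped by role, the members on top, and listed values of 0 marked. Clu, Cd59a, Cd55, C1qbp and Cpn1 stand out from a background in which most entries are at 0, most of all in the adult libraries.

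CD55 and CD59 both reach the cell surface on a GPI anchor, and the genes that build it were read from a list of 28, of which 27 were in the table. Of these, 25 were tested and limma called 0 in either direction (2 higher and 3 lower at an unadjusted p under 0.05), and their median change was -0.46 beside -0.86 for all genes. Of all genes tested, 2.12% were called higher, 8.83% lower and 31.3% were under that unadjusted p in either direction. These shares also stand beside the counts of the lists that follow. Summed FPKM of the list was 237 to 278 in the adult libraries and 215 to 238 in the E16.5 libraries. Pigt, part of the transamidase that attaches the anchor, was at 29.6, 40.2 and 63.5 FPKM in adult and 34.9, 27.2 and 16.8 at E16.5 (limma adjusted p = 0.297). Pigk, its catalytic subunit, was at 35.4, 31.8 and 73.6 in adult and 20.4, 22.8 and 21.9 at E16.5 (0.16).

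Serpins and contact system genes related to Serping1 by function or family numbered 19, of which 6 were tested. Limma called 0 higher and 1 lower, beside 2.12% and 8.83% of all genes tested. The counts were the same at an unadjusted p under 0.05. The one that fell was Serpinh1, a chaperone of collagen and not an inhibitor of proteases, at 61.3, 54.2 and 89.3 FPKM in adult and 286, 251 and 181 at E16.5 (change -1.80, limma adjusted p = 0.0172). Serpinb6a was at 24.3, 59.2 and 0.531 in adult and 38.6, 75.2 and 32.1 at E16.5.

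Interferon and acute-phase responsive genes, which commonly move with C3 and Cfb in inflamed tissue, numbered 29. Of the 16 tested, limma called 0 in either direction (1 higher and 3 lower at an unadjusted p under 0.05), and their median change was -0.97. B2m was at 36.3, 92.3 and 0 FPKM in adult and 109, 70.3 and 98.6 at E16.5, and H2-K1 at 32.5, 12.1 and 62 in adult and 5.91, 12.7 and 22.1 at E16.5. Neither passed the test (limma adjusted p = 0.265 and 0.273).

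The ChP identity of the libraries was read from 13 epithelial markers, all of them tested. Their summed FPKM was 39835 to 55509 in adult and 3667 to 3995 at E16.5. In adult, 5 were called higher and 2 lower, beside 2.12% and 8.83% of all genes tested. Without Ttr, which was listed at 0 in every E16.5 library and may be a failed estimate there, the sums were 18912 to 24207 and 3667 to 3995, and 4 were called higher. Enpp2 alone made up most of these adult sums, at 14886, 18732 and 16409 FPKM in adult and 242, 303 and 274 at E16.5. The sums without Ttr thus say little about the other markers. Folr1 was at 465, 636 and 707 in adult and 1048, 904 and 827 at E16.5. Ttr, a defining marker of ChP epithelium, was at 20922, 31302 and 29741 in adult. Motile cilia markers, with Foxj1 among them, summed to 136 to 318 in adult and 718 to 869 at E16.5. Of 5 tested, 2 were called lower in adult, Foxj1 and Ak7, beside 8.83% of all genes tested. The epithelial list was split. All adult libraries were above all E16.5 libraries in 7 of the 13 and below them in 4, beside 7.39% and 31% of all genes tested. The 2 called lower were Otx2 and Krt18 (limma adjusted p = 0.0251 and 0.0429). Cd59a moved with the 4 called higher besides Ttr (Enpp2, Kcnj13, Kl and Prlr) and against those 2. The part of these shifts in the rise of Cd59a was not tested. In bulk samples such as these, fewer cells of a type and less RNA per cell cannot be told apart.

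Markers of other cells that could bring complement RNA into the pull-down were read in the same way. Macrophage markers summed to 0.0695 to 8.24 FPKM in adult and 0.984 to 4.36 at E16.5, and 5 of 12, Aif1, Cd68, Fcer1g, Tyrobp and Cd14, were at 0 in every library. Fibroblast markers summed to 33.7 to 62.4 in adult and 112 to 123 at E16.5. Of 8 tested, 1 was called lower in adult, beside 8.83% of all genes tested. It was Pdgfra (2.93, 2.2 and 5.91 against 18.4, 34.9 and 29.7, limma adjusted p = 0.0296). Averaged over all 6 libraries, Postn and Igfbp5 were the most abundant of the list. Cd55 and Serping1 were, like this list, at their highest in E16.5 libraries, and the part of fibroblasts in their levels was not tested.

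Endothelial markers summed to 0.489 to 28.4 FPKM in adult and 17.6 to 42.4 at E16.5. Mural markers summed to 3.9 to 12.9 in adult and 6.18 to 8.64 at E16.5. Only 4 endothelial and 3 mural genes were tested, of which limma called 0. At an unadjusted p under 0.05, 1 endothelial gene was lower in adult. Red blood cell markers summed to 0 to 6.49 in adult and 54.1 to 324 at E16.5. Of 3 tested, Hba-a2 and Hbb-bs were called lower in adult. Neuronal markers summed to 0.137 to 19.3 in adult and 13.1 to 116 at E16.5, and glial markers to 4.75 to 73 and 9.38 to 16.3. Of 7 neuronal and 4 glial genes tested, 0 were called. At an unadjusted p under 0.05, 2 neuronal genes and 1 glial gene were lower in adult. A count of 0 among so few tested genes does not show that the ages were alike.

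Hepatocyte and plasma protein transcripts were read because the liver is the main source of C3, C4, C2 and factor B. They summed to 14.5 to 578 FPKM in adult and 35.7 to 147 at E16.5. Of 5 tested, 0 were called, also at an unadjusted p under 0.05. Alb was at 34, 0.613 and 171 in adult replicates 1, 2 and 3 and at 30.8, 21.2 and 63.3 in E16.5 replicates 1, 2 and 3, and Apoa2 at 9.28, 1.12 and 365 and at 25.8, 14.5 and 70.8. Within each age, C3 was listed at 0 in the library with the least Alb and was highest in the library with the most Alb. This coincidence over 6 libraries was seen after the values were known, and the part of such transcripts in the C3 values was not tested.

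Genes whose levels followed those of a member most closely over the 6 samples are given as a description. For Cd59a these were Lrp10, a lipoprotein receptor family member (Pearson's r of log2(FPKM + 1) 0.9972, at 51.1, 69.8 and 97.6 FPKM in adult and 30.3, 26 and 22.7 at E16.5), and Dsel (0.9956). Cd55 was followed by Srp72, a subunit of the signal recognition particle (0.9964, at 10.4, 27.4 and 24.1 in adult and 37.7, 54.9 and 41.4 at E16.5), and by Cwc15 (0.9955). C3 was closest to Brsk1 (0.9793) and Cep162 (0.9728). Each was picked as the closest of 11601 genes over 6 points of 2 ages, so its r is high by selection.

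None of the genes around Cd59a on chr2 was called. Within 50000 bases, Cd59b lies 4614 bases away, with the values given above. Fbxo3, a ubiquitin ligase subunit 32561 bases away, was at 19.2, 32.5 and 115 FPKM in adult and 43.4, 58.3 and 52 at E16.5 (change -0.28, SE 0.62, limma adjusted p = 0.783). A930018P22Rik was at 0 in every library, D430041D05Rik was under the filter, and Gm10799 and Gm10912 were not in the table by name.

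The libraries differed in depth along with age. Depth was read from the steps between low values. In a library, 65.6% to 80% of 45 to 70 low values fell no more than 0.1 from a whole read. A step fixed beforehand would give 20% by chance. The step used was itself chosen for a high share, so the share is no check of the depths. By these steps, adult replicate 3 had the least depth. Relative to it, depth was 1.3 in adult replicate 1, 2.91 in adult replicate 2 and between 4.19 and 5.28 at E16.5. Of the genes tested, 10.3% to 36.4% were at 0 in an adult library and 3.68% to 4.02% in an E16.5 library. Mir6236 alone took 32.7% to 51.7% of summed FPKM in adult and 13.3% to 15% at E16.5. The lower levels of Cd55, Serping1, Cpn1 and Susd4 in adult moved with this lower depth and with the negative median of all genes, and the part of either was not tested. Among the adult libraries, Cd59a was at 52.6 FPKM in replicate 1, 104 in the deeper replicate 2 and 221 in the shallowest, replicate 3. The part of depth in the Cd59a levels was not tested.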

How the data were processed

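TRAP-seq FPKM of 3 adult and 3 E16.5 ChP samples were used as deposited, grouped by the sample titles. The authors aligned 50-base single-end reads to mm10 with STAR (2.4.0 in the submitters' processing notes) and calculated gene FPKM with Cuffquant of Cufflinks. The annotation release behind these FPKM is not given in the sources used here (the methods name an mm10 gene annotation for read counting only), and no further scaling of the samples is named. Read counts were not analysed here, and no molecular identifiers are named, so that floors and implied reads cover counting error only.

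The 6 samples were compared on log2(FPKM + 1) in 11601 genes, those of mean FPKM above 1, by limma (3.58.1, R 4.3.3) using an intensity trend, no covariate and Benjamini-Hochberg adjustment over all genes tested to a threshold of 0.05. Such changes understate those of low genes. Single genes were also compared by two-sided exact permutation tests. The fit was tested on simulated data first. Same-numbered samples did not deviate together (r between 0.000895 and 0.0439 across genes), and nothing in the labels pairs them.

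Depth was read from steps of single reads among low values of 2523 genes with 1 transcript longer than 1000 bases, at an effective length 200 bases below the transcript. This way of reading depth was chosen once first results were known. Reads implied for a gene use its longest coding transcript. Coordinates came from GENCODE vM21, whose transcripts were also cut into stretches of 50 bases to find those shared between genes. Promoters are from RefSeq (GRCm38.p6).

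The members, the gene lists and the tests were chosen with earlier results of these data known. Named are all members, called complement genes, the 2 highest genes of each role and list, up to 3 called genes per list and direction, the 2 genes most like each member above 0 in 4 or more samples, and the neighbours of called members. Some genes that this rule takes are left out of the text, and 1 complement gene that is in the list counts is not reported here by name or in the figures. Alternatives were 2 other pseudocounts (0.1 and 0.01), no filter and a stricter one, 3 rescalings, limma without trend, sample weights, the replicate block, a threshold of 0.01 and each sample left out.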

Additional observations from a re-analysis of the deposited data

How the results depend on the processing

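The 1 member called higher in adult (Cd59a) and the 1 other complement gene called lower (Cpn1) both became 0 at a threshold of 0.01. The count of members called lower, 0, became 1 (Cd55) with libraries rescaled to the same sum and with sample weights. With 1 library left out, members called higher ranged from 0 to 1, members called lower from 0 to 1 and other complement genes called lower from 0 to 1. The change of Cfb reversed to 0.25 under quantile normalization and that of Clu to -0.71 with libraries rescaled to the same sum. The replicate block changed no call among the complement genes (Cd59a limma adjusted p = 0.0442), and 112 genes were called higher and 452 lower over the whole table, beside 246 and 1024 without it. Rescaling to the same sum gave 111 and 3035, quantile normalization 569 and 504, median-ratio scaling 349 and 658, and the threshold of 0.01 gave 56 and 132. Those scalings moved the median change of all genes from -0.86 to -1.52, 0.01 and -0.56. Without adult replicate 1, 2 or 3 the counts were 146 and 541, 219 and 1704, and 357 and 1364, without E16.5 replicate 1, 2 or 3 they were 32 and 25, 27 and 16, and 47 and 65, and limma without trend called 158 and 949. C4b, C2, Cfb and Serping1 were each at 0 in 3 or more of the 6 libraries, in deep libraries as well as shallow ones. By counting error alone, a listed 0 leaves room for up to about 3 reads. Values of about 1 read (Serping1, adult replicate 2) and 2 reads (C4b, E16.5 replicate 1) were also listed. The cause of these differences was not tested.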
